A study of Mus musculus with 6 samples.

Results

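The carcinoembryonic antigen (Ceacam) gene family was examined through 6 of its genes, Ceacam1, Ceacam2, Ceacam10, Ceacam16, Ceacam18 and Ceacam20, which were chosen by name from the 52636 genes in the count table. Ceacam1 encodes CD66a, a surface protein used to sort the cells, so its difference between the populations is a check of the sort and not a result. Medullary thymic epithelial cells (mTEC) from the thymus of C57BL/6 mice at 6 weeks of age were measured by ultra-low input bulk RNAseq, in 6 libraries, 3 for each of the tuft-like and non-tuft-like populations. All 6 libraries came from cells that bound the lectin UEA1, were low for MHCII and were negative for CD80, Sca1 and CD63. Tuft-like cells carried both CD117, the product of Kit, and CD66a, and non-tuft-like cells carried neither. The sources used here do not say whether the triplicates came from separate mice or pools, so p-values measure the spread between these samples, which may be technical.

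Proteins of the family carry immunoglobulin domains at or outside the cell surface, and several bind each other or themselves across cell contacts. CEACAM1 spans the membrane and has inhibitory tyrosine motifs in its long cytoplasmic tail, which recruit the phosphatases SHP1 and SHP2. Tuft cells are chemosensory epithelial cells that use taste receptors and depend on the transcription factor Pou2f3, and the thymic medulla holds cells that resemble them.

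Ceacam1 and Ceacam2 lie next to each other on mouse chromosome 7, with 38.4 kb between them, and Ceacam10 lies on the same chromosome. The upstream sequences of these 3 genes are shown because they are related to each other. Whether they bear on the levels of the genes was not tested. Each runs 5′ to 3′ over the 250 bases before the gene's start in RefSeq on GRCm38.p6, and capitals mark the E-box CACGTG, which USF transcription factors bind. The Ceacam1 sequence is chr7:25477626-25477875 on the minus strand, that of Ceacam10 is chr7:24776917-24777166 on the plus strand, the first of 2 starts listed, and that of Ceacam2 is chr7:25540005-25540254 on the minus strand.
Ceacam1: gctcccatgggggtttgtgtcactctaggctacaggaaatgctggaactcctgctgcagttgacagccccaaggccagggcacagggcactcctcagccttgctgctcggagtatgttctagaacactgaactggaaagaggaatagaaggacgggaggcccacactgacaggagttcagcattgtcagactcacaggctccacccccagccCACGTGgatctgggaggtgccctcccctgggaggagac
Ceacam10: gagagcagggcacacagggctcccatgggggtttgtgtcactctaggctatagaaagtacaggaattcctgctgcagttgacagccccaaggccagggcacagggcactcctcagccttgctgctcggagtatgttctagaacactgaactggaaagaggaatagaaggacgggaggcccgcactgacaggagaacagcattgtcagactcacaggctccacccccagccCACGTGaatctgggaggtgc
Ceacam2: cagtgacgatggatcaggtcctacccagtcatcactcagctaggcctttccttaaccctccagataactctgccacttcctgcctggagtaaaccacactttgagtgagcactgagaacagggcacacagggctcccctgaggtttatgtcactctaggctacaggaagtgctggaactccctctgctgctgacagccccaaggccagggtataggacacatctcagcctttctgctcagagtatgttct
The Ceacam1 and Ceacam10 sequences were identical at 222 of 232 aligned bases (95.7%), with no gap and a longest shared run of 114 bases. Ceacam1 and Ceacam2 aligned over 120 columns with 104 identical bases (86.7%), and Ceacam2 and Ceacam10 over 138 columns with 117 identical bases (84.8%). CACGTG, which reads the same on both strands, stood 38 to 33 bases before the start of Ceacam1 and 20 to 15 bases before the first listed start of Ceacam10, or 57 to 52 bases before its second. The 250 bases before Ceacam2, Ceacam18 and Ceacam20 did not hold these letters. The alignment of Ceacam1 with Ceacam2 ended 131 bases before the Ceacam1 start, at the last base of the Ceacam2 window. The Ceacam2 counterpart of the E-box position was thus outside the window. In the annotation used for gene positions (GENCODE M21), Ceacam2 starts further downstream, at chr7:25539857. The bases between these 2 starts were not searched. Among windows of this length, 6.02% of all 32841 held the E-box. The octamer ATGCAAAT, searched on both strands, was found in none of these windows and in 1.60% of all promoter windows. A match is a description of letters and not of binding.

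Of the 6 libraries, tuft-like replicate 3 stood apart. Gene counts per library summed to 20097617 to 48369825, and the row for reads on no annotated gene held 19.7% of the table total there and 34.4% to 61.6% in the other 5. The 1134 olfactory receptor genes, which serve here as a level for genes these cells are not known to use, had a mean of 2.54 counts per exonic kb in that library and 5.70 to 15.2 in the others. Tuft cell markers were called higher in the tuft-like libraries for 22 of 22 genes by edgeR's quasi-likelihood test. A gene was called at a false discovery rate (FDR), adjusted over all genes tested, under 0.05. Over all genes tested, 1.16% were called higher. The marker list was chosen with earlier results of these data known, so its count is not independent support for the labels. Levels below are TMM-normalized counts scaled to a common library total (CPM). Log2 fold changes are above 0 where tuft-like cells had more, and calls use that edgeR test. In bulk samples, fewer cells of a type and less RNA per cell cannot be told apart.

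Ceacam1 and Ceacam2 were far more abundant in tuft-like mTEC, and the other 4 genes did not pass the test in either direction. All 6 genes were tested, and 2 of 6 were called, both higher. Ceacam1 was fixed by the sort, and of the 5 genes that were not, 1 was called. Over all 32496 genes tested, 2.11% were called in either direction, 1.16% higher and 0.951% lower. Tuft-like and non-tuft-like values did not overlap for 4 of the 6 genes (Ceacam1, Ceacam2, Ceacam16 and Ceacam18), against 16.0% of all genes tested. Tuft-like libraries were all above the others for Ceacam1 and Ceacam2 (7.18% of all genes tested) and all below for Ceacam16 and Ceacam18 (8.85%).

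In replicates 1 to 3 of the non-tuft-like cells, Ceacam1 stood at 11.5, 6.58 and 18.1 CPM, and at 174.3, 179.2 and 272.6 CPM in the tuft-like replicates. All tuft-like libraries lay above all non-tuft-like libraries, in the direction that the labels give for CD66a. The log2 fold change was 4.12 (SE 0.43, FDR 0.000886, edgeR, n = 3 per group), a 17.3-fold difference of the fitted levels. The gene (ENSMUSG00000074272) spans chr7:25461707-25477603 on mm10.

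Ceacam2, the mouse paralog of Ceacam1, was not a sort marker. It was measured at 2.78, 1.83 and 4.23 CPM in the non-tuft-like libraries and at 51.2, 52.3 and 37.8 CPM in the tuft-like libraries. The groups did not overlap, and tuft-like replicate 3, the highest library for Ceacam1, was the lowest tuft-like library for Ceacam2. The log2 fold change was 4.0 (SE 0.47, 95% interval 2.97 to 5.03, FDR 0.00155, edgeR, n = 3 per group). In the non-tuft-like cells Ceacam2 was below the 99th percentile of olfactory receptor genes per exonic kb in 3 of 3 libraries, at 0.279 to 0.422 of it, whereas the tuft-like libraries were at 4.92 to 8.04 times it. With the mean olfactory receptor level subtracted from each library, an alternative chosen after seeing the data, the log2 fold change of Ceacam2 was 4.63 (FDR 0.00182, edgeR) and that of Ceacam1 was 4.27.

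The transcripts of these paralogs share sequence. Of all 50-base stretches of the annotated Ceacam2 transcripts, 46.7% also occur in Ceacam1, and 30.4% of those of Ceacam1 occur in another family gene, nearly all in Ceacam2. For 100-base stretches the shares were 32.9% and 20.5%. The read length is not given in the sources used here. The authors' table set apart 4.01% to 5.05% of reads per library as aligned to more than 1 place, and how many of these came from Ceacam1 or Ceacam2 was not tested.

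Within a library, the ratio of Ceacam2 to Ceacam1 does not depend on scaling. Ceacam2 counts amounted to 24.2%, 27.8% and 23.3% of Ceacam1 counts in the non-tuft-like libraries and to 29.4%, 29.2% and 13.9% in the tuft-like libraries. The ratios lay close together in 5 libraries, and tuft-like replicate 3 lay below them. In the non-tuft-like libraries, however, both genes were near the olfactory receptor level. Ceacam2 was at 0.279 to 0.422 and Ceacam1 at 0.655 to 1.15 of its 99th percentile there. The ratios were not corrected for that level, so their closeness across the groups may partly reflect background reads, which was not tested. The mean log2 ratio was -2.0 ± 0.13 (SD, n = 3) in non-tuft-like and -2.13 ± 0.62 (SD, n = 3) in tuft-like cells. The difference of -0.13 is a description without a test, since the sort marker is the denominator. A spread this wide among the tuft-like libraries leaves room for unequal changes of the paralogs. Without tuft-like replicate 3 the difference was 0.22.

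Kit, the receptor for stem cell factor, encodes the other positive marker of the gate. It was at 184.9, 176.3 and 141.1 CPM in the non-tuft-like and at 300.9, 451.4 and 433.0 CPM in the tuft-like libraries. The groups did not overlap, and Kit RNA was measured in all 3 libraries of cells sorted as negative for its protein. Its log2 fold change of 1.24 (SE 0.29, FDR 0.0678, edgeR) missed the threshold, and it was called in 7 of 14 alternative settings. The paper, which used edgeR at an FDR under 0.05, names Kit among the tuft-associated genes enriched in its tuft-like fraction. The reason for this difference was not tested. The log2 ratio of Kit to Ceacam1 counts was 3.91 ± 0.90 in non-tuft-like and 0.93 ± 0.35 in tuft-like cells (SD, n = 3), a difference of -2.98 given as a description, since both genes encode sort markers. The other 7 genes of the gate and of lineage exclusion (Ly6a, Cd63, Cd80, H2-Aa, H2-Ab1, Epcam and Ptprc) held 2 calls, both lower. Over all genes tested, 0.951% were called lower. Ly6a, Cd63 and Cd80 were not called, with log2 fold changes of -1.18, -1.06 and -2.35. All tuft-like libraries were below all non-tuft-like libraries for these genes, as for 8.85% of all genes tested. H2-Aa, an MHC class II chain, had a log2 fold change of -2.01 (FDR 0.0372, edgeR) and H2-Ab1, its partner, of -2.14 (FDR 0.0400), and each call was lost in 4 of the 6 fits that left out a library.

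**Figure D1:**
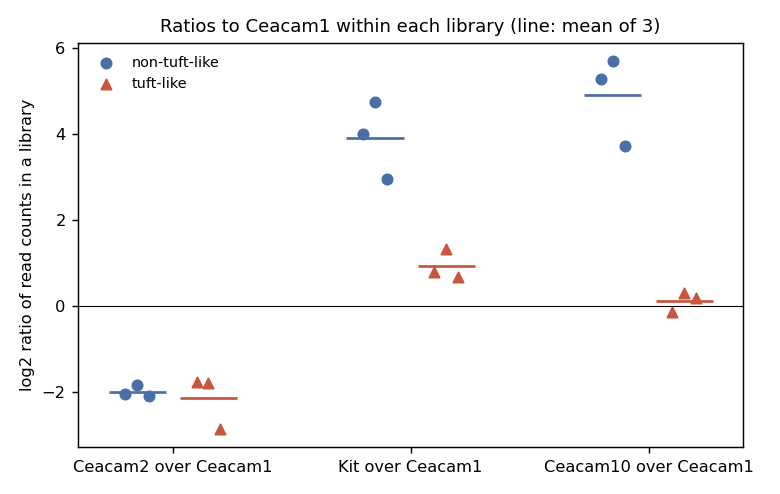
The points are log2 ratios of the read counts of Ceacam2, Kit and Ceacam10 to those of Ceacam1 within each of 6 libraries, with a line at the mean of 3. The Ceacam2 ratio overlaps between the groups, with tuft-like replicate 3 lowest at -2.85, while all Kit and Ceacam10 ratios are lower in the tuft-like libraries.

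Ceacam10 encodes a secreted protein made of immunoglobulin domains only. It was the most abundant of the 6 genes per exonic length in every library, at 299.3, 229.3 and 159.7 CPM per kb in the non-tuft-like and 106.8, 148.3 and 206.6 CPM per kb in the tuft-like libraries. The groups overlapped. The log2 fold change was -0.58 (SE 0.35, 95% interval -1.35 to 0.20, FDR 0.890, edgeR). The log2 ratio of Ceacam10 to Ceacam1 counts was 4.90 ± 1.05 in non-tuft-like and 0.12 ± 0.22 in tuft-like cells (SD, n = 3), a description without a test, since the sort marker is the denominator. Ceacam10 shared 3.0% of its 50-base stretches with another family gene and none of its 100-base stretches.

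Shares of the 6 genes' summed RNA are given as a description without a test, since the sort used CD66a and shares of 1 sum are not independent of each other. Of the summed level per exonic kb, Ceacam10 held 93.3% ± 1.8 in non-tuft-like and 72.1% ± 5.0 in tuft-like libraries (SD, n = 3). The share of Ceacam1 was 0.957% ± 0.720 and 17.1% ± 1.5, and that of Ceacam2 was 0.356% ± 0.245 and 6.34% ± 2.47. The sum itself ranged from 174.9 to 317.9 CPM per kb in the non-tuft-like and from 161.0 to 277.2 CPM per kb in the tuft-like libraries, and these ranges overlapped. In non-tuft-like cells the order of mean levels per kb was Ceacam10, Ceacam18, Ceacam20, Ceacam16, Ceacam1 and Ceacam2, where Ceacam20 overlapped Ceacam16, Ceacam16 overlapped Ceacam1, and the other neighbours did not overlap. In tuft-like cells the order was Ceacam10, Ceacam1, Ceacam2, Ceacam20, Ceacam18 and Ceacam16, where the last 3 overlapped their neighbours and the first 3 did not overlap any other.

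**Figure D2:**
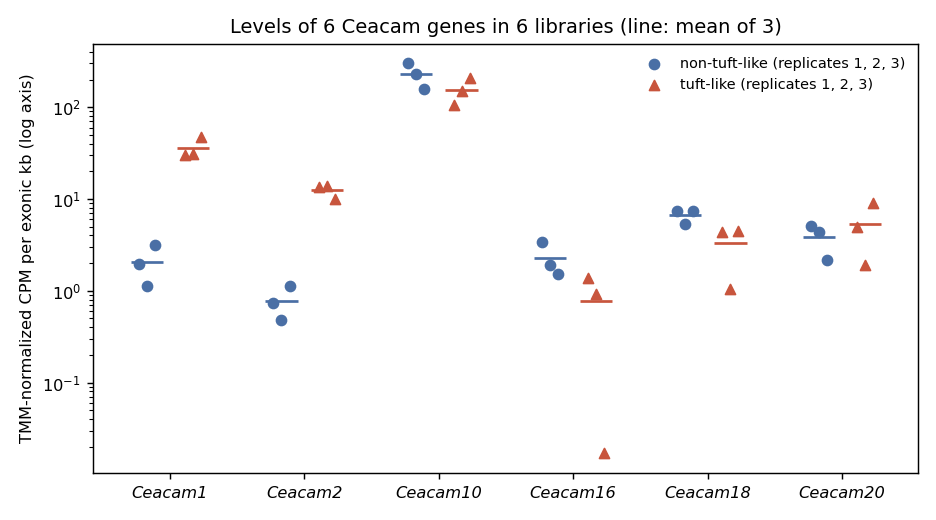
Each point is 1 library and shows the TMM-normalized CPM per exonic kb of a gene on a log axis, with a line at the mean of 3 libraries. Ceacam1 and Ceacam2 are higher in all 3 tuft-like libraries, Ceacam10 is the highest gene in both populations, and Ceacam16 in tuft-like replicate 3 is the lowest point, from 1 read.

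Ceacam18 was measured at 14.4, 10.5 and 14.4 CPM in the non-tuft-like and at 8.64, 2.08 and 8.78 CPM in the tuft-like libraries. All tuft-like libraries were lower, replicate 2 most so. The log2 fold change of -1.01 (SE 0.71, 95% interval -2.59 to 0.56, FDR 1.0, edgeR) did not pass the test. Its level exceeded the 99th percentile of olfactory receptor genes in 3 of 3 non-tuft-like and 2 of 3 tuft-like libraries.

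Ceacam20, which encodes a membrane protein of intestinal microvilli, was at 14.7, 12.7 and 6.26 CPM in the non-tuft-like and at 14.1, 5.55 and 26.3 CPM in the tuft-like libraries. The groups overlapped, and both the lowest and the highest library were tuft-like. The log2 fold change was 0.45 (SE 0.66, 95% interval -1.01 to 1.91, FDR 1.0, edgeR), and without tuft-like replicate 3 it was -0.23 (FDR 1.0).

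Ceacam16 encodes a secreted protein of the tectorial membrane of the inner ear and was the least abundant of the 6 in tuft-like cells. It had 177, 148 and 78 reads in the non-tuft-like and 55, 52 and 1 reads in the tuft-like libraries, or 5.58, 3.15 and 2.48 against 2.27, 1.52 and 0.0276 CPM. The groups did not overlap, but the log2 fold change of -1.55 had an SE of 1.48 (95% interval -4.83 to 1.72, FDR 1.0, edgeR), and it was -1.02 without tuft-like replicate 3. Of its 1635 exonic bases, 380 lie opposite exons of Gm19345, and whether the counting used strand is not given in the sources used here. No tuft-like library and 2 of 3 non-tuft-like libraries exceeded the 99th percentile of olfactory receptor genes.

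The other 24 genes of the family in the table, 10 named Ceacam and 14 pregnancy-specific glycoprotein (Psg) genes, were described by their counts. None was called higher (0 also at an unadjusted p under 0.05, and 0 by DESeq2 and limma voom), and 1 was called lower. The shares over all genes tested were 1.16% higher and 0.951% lower. The gene called lower was Ceacam19, a membrane member of the family, at 67.6, 97.8 and 104.5 CPM in the non-tuft-like and 4.05, 5.73 and 7.54 CPM in the tuft-like libraries. The groups were far apart, with a log2 fold change of -3.96 (SE 0.37, FDR 0.000626, edgeR), and the call held in all 14 alternative settings. Ceacam19 (chr7:19875742-19887965, mm10) lies 14.4 kb from Ceacam16 and 77.4 kb from Ceacam20, neither of which was called.

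The remaining 23 genes were at low levels. No library exceeded 14.2 CPM for any of them (Psg16), and their log2 fold changes ran from -2.52 (Ceacam15) to 1.84 (Ceacam11) with SEs of 1.21 to 2.50. Their 95% intervals all included 0. In tuft-like replicate 3, 21 of the 24 genes had fewer than 10 reads and 11 of the 14 Psg genes had none. No Psg gene exceeded the olfactory 99th percentile in all 3 tuft-like libraries, and only Psg25 did so in all 3 non-tuft-like libraries. Changes of these genes were not detectable at this level of counts.

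**Figure D3:**
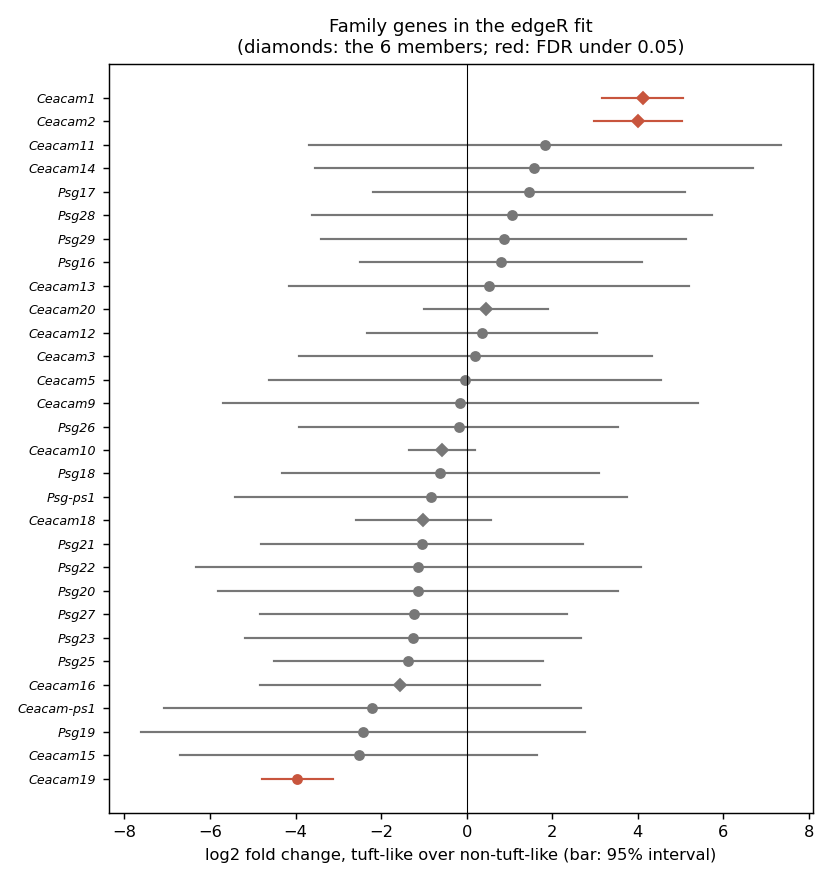
Points are log2 fold changes of 30 family genes (tuft-like over non-tuft-like) with 95% intervals from the edgeR fit, with diamonds for the 6 genes described and red for FDR under 0.05. Ceacam1 and Ceacam2 stand alone at the top near 4, Ceacam19 is at the bottom at -3.96, and the intervals of the others include 0.

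CEACAM1 acts through phosphatases, Src-family kinases and cytoskeletal partners, and 21 such genes were examined. Of these, 3 were called higher, 1 lower and 17 did not pass, against 1.16% higher and 0.951% lower over all genes tested. Their median log2 fold change was -0.11, against 0.02 over all genes tested. Ptpn6, which encodes SHP1, the phosphatase that binds the inhibitory motifs, was at 129.9, 134.3 and 113.4 CPM in the non-tuft-like and 718.3, 1120 and 1166 CPM in the tuft-like libraries. All tuft-like values lay above all others, with a log2 fold change of 2.99 (SE 0.34, FDR 0.00133, edgeR). Ptpn11, which encodes the related SHP2, had means of 38.5 ± 1.5 and 37.2 ± 12.5 CPM (SD, n = 3) and a log2 fold change of -0.05 (SE 0.34, FDR 1.0).

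Among the Src-family kinases examined, Lyn was at 15.2, 38.8 and 40.5 CPM in the non-tuft-like and 100.8, 106.8 and 169.3 CPM in the tuft-like libraries. The groups did not overlap. Lyn had a log2 fold change of 2.0 (SE 0.41, FDR 0.0340, edgeR), and its call was lost in 4 of 6 fits that left out a library. Src, Fyn, Yes1 and Fgr were not called, with log2 fold changes of -0.17, 0.87, -1.03 and -0.54. Anxa2, a calcium-dependent membrane-binding protein, had a log2 fold change of 1.58 (FDR 0.0352), which was also lost in 4 of 6 such fits, and its partner S100a10 was at -0.57 and not called. Flna, an actin crosslinker that binds the CEACAM1 tail, was lower in tuft-like cells at 105.8, 65.2 and 93.8 CPM against 429.1, 654.7 and 624.2 CPM, with a log2 fold change of -2.69 (SE 0.33, FDR 0.00207, edgeR). The calls of Ptpn6 and Flna held in all 14 settings. Exons of Ptpn6, Lyn and Anxa2 overlap genes on the other strand by 195, 248 and 98 bases.

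**Figure D4:**
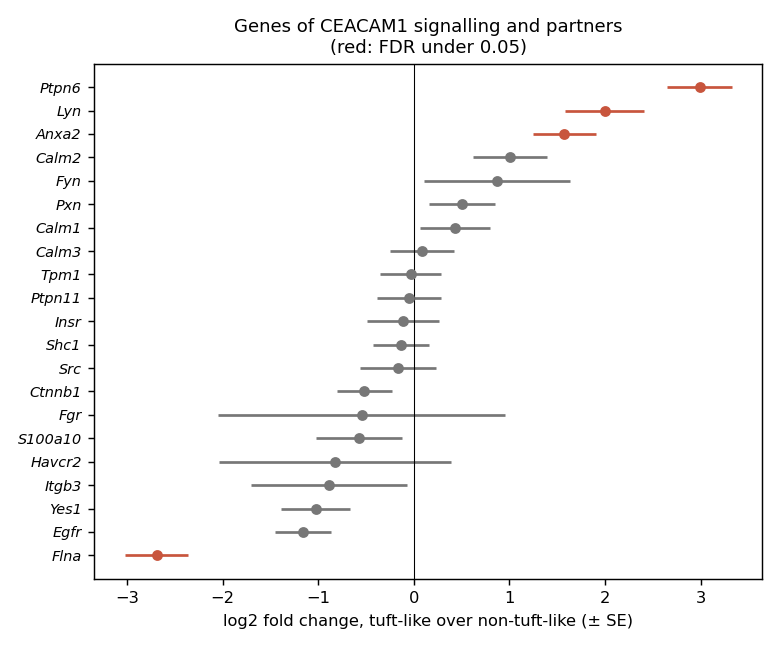
Log2 fold changes with SE are shown for 21 genes of CEACAM1 signalling and binding partners, with red for FDR under 0.05. Ptpn6, Lyn and Anxa2 are above 0, Flna is below, and 17 genes are grey.

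Genes reported to act on CEACAM1 transcription or splicing included no call among 7 (Irf1, Usf1, Usf2, Sox9, Hnrnpl, Hnrnpa1 and Hnrnpm), with a median log2 fold change of -0.07. Over all genes tested, 2.11% were called in either direction. An unadjusted p under 0.05 was reached by 3 of them, and DESeq2 called 3 and limma voom 2. Sox9 had a log2 fold change of 1.63 (FDR 0.0627, edgeR), Usf2 of 1.13 (FDR 0.224) and Hnrnpa1 of -1.09 (FDR 0.0779). Of 5 tectorial membrane and inner ear genes taken as partners of CEACAM16 (Tecta, Tectb, Otoa, Otog and Otogl), none was called by edgeR, DESeq2 or limma voom, and none reached an unadjusted p under 0.05. Of 4 partners of CEACAM20 (Ptprh, Syk, Src and Yes1), none was called by any of the 3 tools and 1, Yes1, had an unadjusted p under 0.05.

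Of 22 tested protein-coding neighbours within 250 kb of Ceacam1 or Ceacam2 on the chromosome, 0 were called higher and 2 lower. Over all genes tested, 1.16% were called higher and 0.951% lower, so 0 of 22 is not a result about these neighbours. The median log2 fold change of the 22 was -0.03. Cxcl17, which encodes a mucosal chemokine, is the nearest tested gene on the Ceacam1 side at 48.8 kb, and its log2 fold change was -1.04 (SE 0.49, FDR 0.595, edgeR). Erich4, nearest on the Ceacam2 side at 74.8 kb, had means of 0.898 and 1.68 CPM, the second in tuft-like cells, and was not called. The genes called lower were Cnfn, encoding a protein of the cornified envelope, with a log2 fold change of -3.21 (SE 0.32, FDR 0.000839), and Axl, a receptor tyrosine kinase, with -3.84 (SE 0.41, FDR 0.00105).

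**Figure D5:**
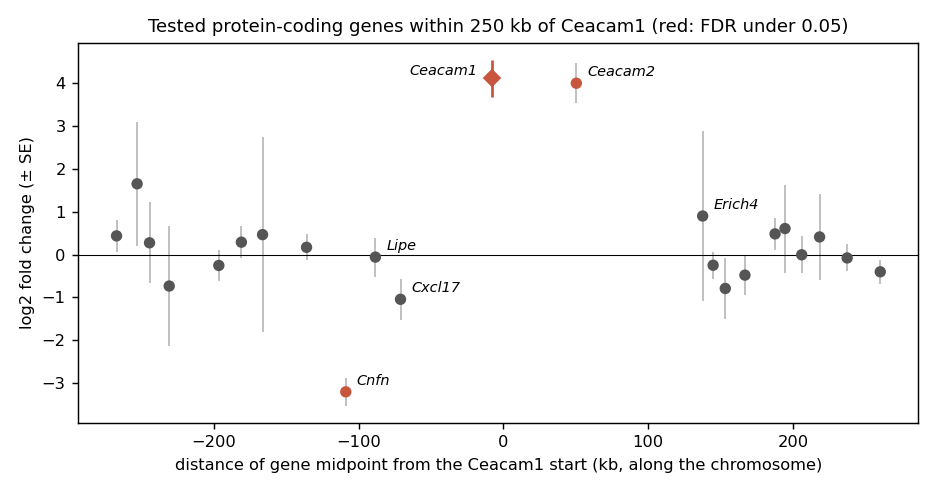
Log2 fold changes with SE of tested protein-coding genes within 250 kb of Ceacam1 are plotted against the distance of their midpoints from its start in kb. Ceacam1 and Ceacam2 are the only genes called higher, and Cnfn is called lower.

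Around the other members, genes were chosen for naming after their values were seen. Counts there stand against 1.16% called higher and 0.951% lower over all genes tested. Within 250 kb of Ceacam10, 1 of 19 tested neighbours was called higher (Ethe1) and 2 lower (Lypd3 and Pinlyp). Cd177, a surface glycoprotein gene 16.9 kb from Ceacam10, was not called, with a mean of 3410 CPM in the non-tuft-like libraries against 1828 CPM and a log2 fold change of -0.90 (FDR 0.587, edgeR). Around Ceacam18, 1 of 22 was called higher (Cd33) and 6 lower, and all 6 were kallikrein-related peptidase genes (Klk5, Klk7, Klk8, Klk10, Klk13 and Klk14). Around Ceacam16, 0 of 18 were called higher and 2 lower (Apoe and Ceacam19).

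Likeness was ranked over 12344 tested genes whose higher group mean reached 10 CPM. The 10 whose pattern over the 6 libraries was closest to that of Ceacam1 were Tas2r125, Chn2, Tas2r105, Gm45826, Chat, Ptgs1, Tas2r107, Tas2r136, Rab44 and A630073D07Rik. The measure was the root mean square difference of log2(CPM + 0.5) after centring each gene, and it ran from 0.232 to 0.380 for these genes. Because Ceacam1 encodes the sort marker, its pattern is mostly the difference between the sorted groups. The 10 genes had log2 fold changes of 3.53 to 5.29. Their likeness to Ceacam1 is thus a description without a test, and shared control was not tested. Chat encodes the enzyme that makes acetylcholine and Ptgs1 a prostaglandin synthase. Of the 10, Tas2r125, Gm45826 and Tas2r107 were not called by edgeR. Ceacam2 stood at rank 13 (0.403), Kit at rank 809, Ceacam20 at 5165, Ceacam10 at 9145 and Ceacam18 at 10560. Ceacam16 was below the 10 CPM needed to be ranked. Only 5 of the 10 genes stayed with a pseudocount of 2 CPM, under which Ceacam2 stood at rank 35. With a minimum mean of 50 CPM, 5 stayed. That minimum removed Tas2r125, Gm45826, Tas2r107, Tas2r136 and Rab44, whose tuft-like means were 14.5, 14.5, 10.1, 28 and 44.3 CPM. Ceacam2, with a tuft-like mean of 47.1 CPM, was also removed and had no rank there. Tas2r125, Gm45826 and Tas2r107 had at most 35 reads in any non-tuft-like library, so the pseudocount weighs on their patterns.

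CEACAM1 is also made by neutrophils, endothelium and lymphocytes, so markers of those cells were measured beside it. The paper's gate for tuft-like mTEC lay within CD45-negative, EpCAM1-positive cells. The summed level of 7 endothelial markers ranged from 36.0 to 44.3 CPM in the non-tuft-like and from 93.6 to 272.0 CPM in the tuft-like libraries, so these sums were higher in all tuft-like libraries. Of the 7, Esam did not overlap between the groups, at 23.7, 5.71 and 8.07 CPM against 52.2, 54.3 and 101.4 CPM. Its log2 fold change was 2.47 (FDR 0.0522, edgeR), and it was called in 8 of 14 alternative settings, including DESeq2 and limma voom. The other 6 (Pecam1, Cdh5, Kdr, Tie1, Emcn and Egfl7) overlapped between the groups and were not called, with log2 fold changes of 0.57 to 2.42. The summed level of 10 neutrophil markers was 70.4 to 109.5 CPM in the non-tuft-like and 20.8 to 35.2 CPM in the tuft-like libraries, with ranges that did not overlap and none called. For 4 B cell markers it was 16.5 to 21.2 and 62.4 to 101.7 CPM, and Cd79b was called higher with a log2 fold change of 3.20 (FDR 0.00317, edgeR). The other 3 (Cd79a, Ms4a1 and Pax5) overlapped between the groups and were not called. None of 9 thymocyte markers was called, with sums of 22.9 to 45.8 and 17.3 to 68.2 CPM. Over all genes tested, 2.11% were called in either direction and 16% did not overlap between the groups. The absence of calls in lists this short is therefore not a result about these cell types. The part of these cells in the Ceacam1 and Ceacam2 levels was not tested.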

How the data were processed

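Reads of the 6 mTEC libraries (3 tuft-like, 3 non-tuft-like) were processed by the authors with Trimmomatic 0.36, STAR 2.7.3a on mm10 and HTSeq (versions from the submitters' processing notes), and deposited as whole read counts per gene without normalization. RNA came from a column kit per the labels and from trizol per the paper. The strand setting and annotation release are not given in the sources used here. The table held 52636 gene rows, 92 ERCC rows at 0 and 5 rows of unassigned reads, which stayed out of library sizes. GENCODE M21 named 99.6% of gene rows, and exonic lengths came from it.

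Counts were filtered (filterByExpr, minimum count 10, minimum total 15), scaled by TMM and tested with edgeR 4.0.16 (glmQLFit, R 4.3.3) on all 6 libraries without covariates, with Benjamini-Hochberg adjustment over all genes tested. SE was the absolute log2 fold change over the square root of F. The edgeR steps were tested on counts simulated from the means and dispersions fitted to these data. Such counts hold no differences in background or quality between libraries, so the simulation does not cover those. The limit that 0 counts allows, 3 counts, was 0.0639 to 0.124 CPM, for counting error only. No 2 libraries held equal counts for more than 10.0% of the tested genes.

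Alternatives used RLE factors, library size only, DESeq2 1.42.0, limma voom 3.58.1, other filters, a replicate block, each library left out, and, added after seeing the data, subtraction of the olfactory receptor level. Upstream sequences came from RefSeq (GRCm38.p6) for 5 of the 6 genes and were aligned locally with Biopython 1.88. No upstream sequence is shown for Ceacam16. The members, lists and rules were chosen with earlier results of these data known. Genes named were the 6 members, other family genes with at least 10 counts in 2 libraries (those without a call by range), called genes of the lists and Kit, the 10 genes most alike to Ceacam1, and called or nearest neighbours of Ceacam1 and Ceacam2. Others, including uncalled list genes, were chosen after their values were seen. Values of some list genes are not reported here, and the list counts leave them out. Of further lists, thymic epithelium (10 genes) held 0 higher and 2 lower calls (Krt14 and Foxn1), macrophage and dendritic cell (10) 1 lower (Cd68), fibroblast (6) none and enterocyte (12) 1 lower (Apoa4). Over all genes tested, 1.16% were called higher and 0.951% lower.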

Additional observations from a re-analysis of the deposited data

How the results depend on the processing

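Under 14 alternative settings, Ceacam1 and Ceacam2 were the only members called, and Ceacam19 was the only other family gene called. Leaving out 1 library at a time gave log2 fold changes of 3.82 to 4.51 for Ceacam1 (FDR at most 0.00277, edgeR), 3.75 to 4.33 for Ceacam2 (FDR at most 0.00863), -0.89 to -0.36 for Ceacam10, -2.26 to -1.02 for Ceacam16, -1.34 to -0.59 for Ceacam18, -0.23 to 0.85 for Ceacam20 and -4.24 to -3.76 for Ceacam19. Ceacam20 turned to -0.23 without tuft-like replicate 3. Differences in log2 ratio ran from -0.32 to 0.22 (Ceacam2 to Ceacam1) and from -3.45 to -2.56 (Kit to Ceacam1).

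The 687 genes differing (378 higher, 309 lower) became 1045 (519 and 526) with library size only, 1904 (974 and 930) with DESeq2, 1127 (550 and 577) with no filter on low counts and 1055 (550 and 505) with olfactory background subtracted. Leaving out a library gave 376 to 922, with 379 without non-tuft-like replicate 2, 376 without tuft-like replicate 2 and, without tuft-like replicate 3, 310 higher and 612 lower. The 4 list genes called in the signalling, RNA control and partner lists became 8 with library size only, 9 with DESeq2, 7 with limma voom, 8 with background subtracted and 2 to 5 with a library left out, with 2 without non-tuft-like replicate 1, non-tuft-like replicate 2 or tuft-like replicate 2. The 10 genes most alike to Ceacam1 kept 5 with a 2 CPM pseudocount and 5 with a minimum of 50 CPM, which the genes lost did not reach. The cause of the other shifts was not tested. The median log2 fold change of all genes moved from 0.02 to -0.17 with limma voom, where Ceacam1 was at 4.31 and Ceacam2 at 4.13.

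Whether replicate numbers pair the libraries was not settled by the deviations of same-numbered libraries, which correlated at -0.12, -0.05 and -0.29. Such deviations also carry differences in library quality, which could hide a pairing. The replicate block ended the calls of H2-Aa, H2-Ab1 and Anxa2. With it 737 genes were called, 578 of them among the 687, and the log2 fold changes were 4.20 for Ceacam1, 4.07 for Ceacam2, -0.58 for Ceacam10, -2.45 for Ceacam16, -1.25 for Ceacam18, 0.24 for Ceacam20 and -3.98 for Ceacam19.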
